A study of Mus musculus with 6 samples.

Results

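RNase P RNA (Rpph1) and RNase MRP RNA (Rmrp) are the RNA parts of a pair of related ribonucleoprotein enzymes, and they were followed here in hearts with and without Elac2. Both were chosen by gene name, and they are 2 of the 30638 features counted in the series. Small RNA libraries with inserts of 15 to 100 nt had been made from whole hearts of 6 C57BL/6 mice. The 3 control mice are titled L/L, which stands for Elac2 alleles with a loxP-flanked exon and no cre, and their genotype label reads Elac2 +/+. The 3 knockout mice are titled L/L, cre, with the genotype label Elac2 -/-, and lose that exon through a cre recombinase driven by the muscle creatine kinase promoter. That promoter is active in muscle cells, so the other cells of the heart keep the gene. The ages and sexes of the mice were not given in the sources used here.

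RNase P cuts the 5′ leader off precursor tRNAs in the nucleus, while RNase Z, the enzyme encoded by Elac2, cuts off their 3′ trailer. RNase MRP shares most of its protein subunits with RNase P and cuts the precursor of ribosomal RNA in the nucleolus, between the parts that become the small and the large subunit. Both RNAs are made by RNA polymerase III from promoters that lie upstream of the gene. Mitochondria of mammals remove tRNA leaders with another RNase P, which consists of protein only.

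The genes lie on different chromosomes of GRCm38 (mm10), both on the minus strand. Rpph1 (ENSMUSG00000092837.1) is a 319 nt gene with a single exon at chr14:50807449-50807767, and Rmrp (ENSMUSG00000088088.1) is a 271 nt gene with a single exon at chr4:43492788-43493058. The sequences below, from GENCODE M21, show what the counted fragments derive from, with the longest run that both RNAs share in capitals. That run is 9 nt long, at positions 17 to 25 of Rpph1 and 183 to 191 of Rmrp, counted from the 5′ end. An insert of 15 nt or more therefore cannot match both RNAs on the same strand without a mismatch. For Rpph1 only the ends outside a UTR exon of Ccnb1ip1 are shown, positions 1 to 35 and 269 to 319.
Rpph1 5′ end: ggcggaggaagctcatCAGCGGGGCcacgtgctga
Rpph1 3′ end: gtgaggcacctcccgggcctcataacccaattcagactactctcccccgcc
Rmrp: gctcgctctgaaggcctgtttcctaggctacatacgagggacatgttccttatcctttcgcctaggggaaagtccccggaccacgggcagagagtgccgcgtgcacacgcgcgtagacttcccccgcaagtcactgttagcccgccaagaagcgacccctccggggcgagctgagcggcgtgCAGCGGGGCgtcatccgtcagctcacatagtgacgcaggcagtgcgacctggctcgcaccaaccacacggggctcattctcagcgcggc

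Each RNA is longer than the largest insert, so the counts measure fragments and do not tell an intact RNA from its pieces. Other annotated genes cross both. Of the 319 nt of Rpph1, 233 (positions 36 to 268) coincide with a UTR exon of Ccnb1ip1 on the same strand. Of the 271 nt of Rmrp, 124 (positions 36 to 159) lie opposite a non-coding exon of Ccdc107 on the plus strand, and a second Rmrp gene model of 281 nt covers all of it. These genes were not analysed here, and reads from them cannot be told apart from reads of Rpph1 and Rmrp where they overlap. Parp2 begins 74 nt upstream of Rpph1 on the other strand. Rpph1 also holds a run of 23 nt that occurs at 2 places in it.

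Related copies took almost no reads. Besides Rpph1 and Rmrp, 20 features carry the gene type ribozyme, and 16 of them had 0 counts in every library, which allows up to 3 counts in each. The RNase P RNA-like genes Rprl2 and Rprl3 had 10 and 4 counts over all 6 libraries, and Gm22714 and Gm22902 had 1 each. Together the 20 held 0.0348% of the counts in this class, against 45912 counts in Rpph1 and Rmrp. Exact 25-mers of Rpph1, 295 in all, recurred in Rprl3 (31), Rprl2 (16), Gm25043 (7), Rprl1 (5) and Gm22902 (2), and 7 lay antisense in Gm6093. Apart from Ccdc107 and the second Rmrp model, no transcript in GENCODE M21 held a 25-mer of Rmrp.

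Total counts ranged from 13510061 to 16248673 per library. Control libraries detected 4664 to 6018 features and knockout libraries 2995 to 3160. The 7 cardiomyocyte microRNA genes (Mir208a, Mir208b, Mir499, Mir1a-1, Mir1a-2, Mir133a-1 and Mir133a-2) summed to 134166 to 161740 unscaled CPM (counts relative to the library total, times 1e6) in control and 68961 to 82923 in knockout hearts. The summed level was 716 to 1539 against 984 to 1438 for blood (4 of 5 genes with counts), 22407 to 27056 against 16721 to 18210 for endothelium (1 gene) and 30599 to 38226 against 20946 to 26699 for smooth muscle (2 genes). It was 731 to 959 against 1065 to 1243 for fibroblasts (1 of 3 genes with counts). The liver gene Mir122 stayed between 0.627 and 2.66, and the 3 brain genes of the Mir124a family reached at most 0.201. The part of these shifts in the results was not tested, and fewer cells of a type cannot be told apart from less RNA per cell. The targeted mRNA, Elac2, was not analysed here and does not check the genotype labels.

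Rpph1, the RNA that carries the catalytic core of nuclear RNase P, had between 697 and 932 counts in each heart. Control replicates 1 to 3 had 921, 750 and 932 Rpph1 counts, and knockout replicates 1 to 3 had 799, 697 and 729. As a share of all counts this was 0.00682%, 0.00462% and 0.00584% in control and 0.00551%, 0.00456% and 0.00488% in knockout hearts. The ranges overlapped, with the highest and the second highest value in control hearts and the lowest in a knockout heart. Control hearts averaged 0.00576% ± 0.00110 and knockout hearts 0.00498% ± 0.000481 (SD, n = 3 each), with an exact two-sided permutation p = 0.3, where 0.1 is the smallest that 3 against 3 allow.

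Rmrp, the RNA of the pre-rRNA cutting enzyme, gave more reads than Rpph1 in every library. Control replicates 1 to 3 had 7128, 6011 and 6908 Rmrp counts, and knockout replicates 1 to 3 had 8239, 6428 and 6370. The shares of all counts were 0.0528%, 0.0370% and 0.0433% in control and 0.0568%, 0.0421% and 0.0426% in knockout hearts. Replicate 1 was the highest of its group in both genotypes, and the groups overlapped. Control hearts averaged 0.0444% ± 0.00794 and knockout hearts 0.0472% ± 0.00834 (SD, n = 3 each), with an exact two-sided permutation p = 0.7. Rpph1 and Rmrp together held 0.0501% ± 0.00902 and 0.0522% ± 0.00880 (exact two-sided permutation p = 0.7, n = 3 per group).

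Counting error alone gives a coefficient of variation of 3.28% to 3.79% per library for Rpph1 and 1.10% to 1.29% for Rmrp. Between control hearts the shares varied by 19.2% for Rpph1 and 17.9% for Rmrp, and between knockout hearts by 9.65% and 17.7%. After the scaling described next, Rpph1 varied by 17.3% between control hearts and by 3.14% between knockout hearts, the latter no more than counting error gives. Reads from amplified libraries are not independent molecules, so such errors cover counting only.

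Libraries were then scaled by TMM factors, which assume that most features do not change. On this scale Rpph1 stood at 59.9, 42.2 and 50.9 CPM in the control hearts, in replicate order, and at 58.0, 55.1 and 54.9 CPM in the knockout hearts. All 3 knockout values lay inside the control range. The log2 fold change of Rpph1 was 0.14 (SE 0.19, 95% interval -0.29 to 0.56, adjusted p = 0.577 by the quasi-likelihood test of edgeR, adjusted after Benjamini and Hochberg), a 1.10-fold difference with an interval from 0.818 to 1.47.

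Rmrp stood at 463, 339 and 377 scaled CPM in the control hearts, in replicate order, and at 599, 509 and 479 in the knockout hearts. Every knockout heart lay above every control heart, with the nearest pair at 479 and 463, and groups stood apart in this way for 63.0% of all tested features. The log2 fold change of Rmrp was 0.43 (SE 0.18, 95% interval 0.03 to 0.83, unadjusted p = 0.0382, adjusted p = 0.0691 by edgeR), which is 1.35-fold with an interval from 1.02 to 1.77. Neither RNA passed the threshold of 0.05 on the adjusted p, in a comparison where 50.2% of 1144 tested features did, 23.2% as higher and 27.0% as lower in knockout hearts. Both interval and test measure the spread between these mice. In the authors' deposited table the log2 fold changes were 0.17 (adjusted p = 0.556) for Rpph1 and 0.46 (adjusted p = 0.0711) for Rmrp, and 29.4% of features with an adjusted p were under 0.05 there.

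**Figure D1:**
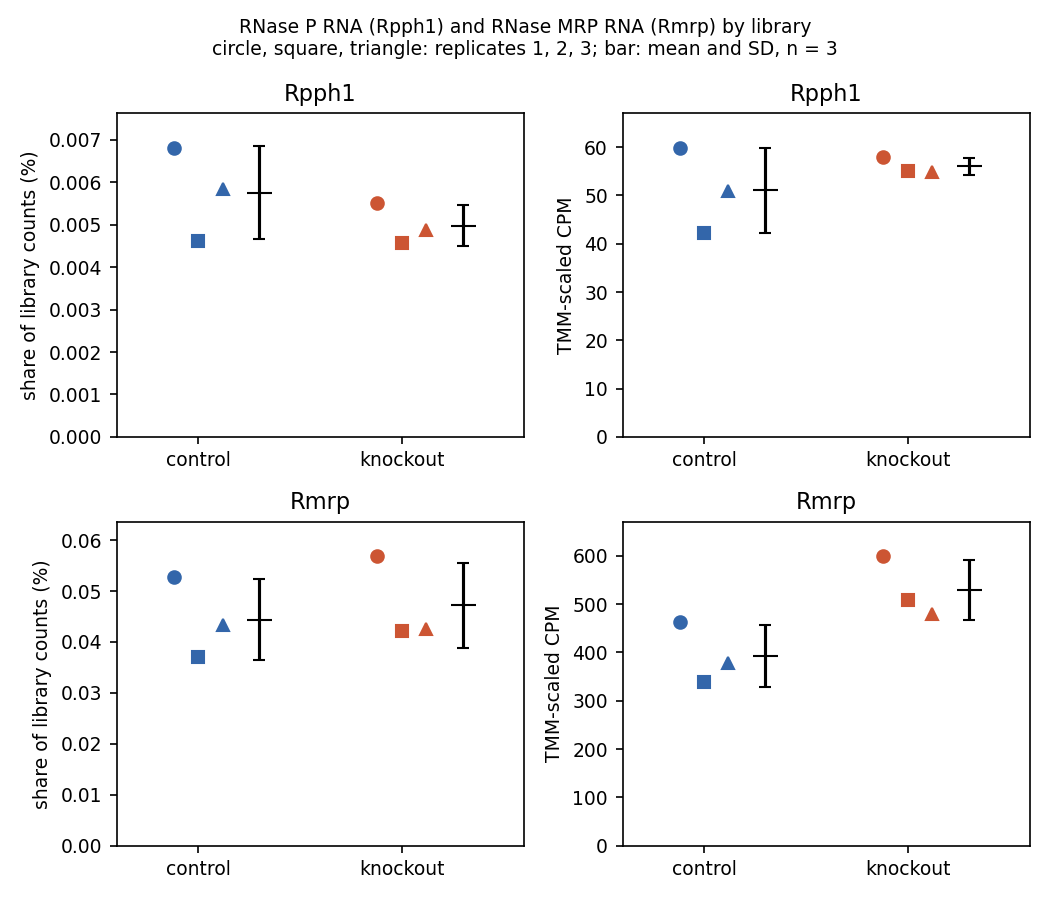
Rpph1 (top) and Rmrp (bottom) in each library, as a share of all counts in percent (left) and as TMM-scaled CPM (right). Points are mice and bars show the mean and SD (n = 3). Groups overlap in all panels except scaled Rmrp, where knockout hearts start at 479 and control hearts end at 463.

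The size and the sign of both differences changed with the library scaling. With total counts alone, the log2 fold change was -0.21 for Rpph1 (adjusted p = 0.449) and 0.09 for Rmrp (adjusted p = 0.733). Factors from snoRNA and scaRNA genes gave -0.72 for Rpph1 (adjusted p = 0.00913 by edgeR), the only call Rpph1 received among 14 alternatives, and -0.43 for Rmrp (adjusted p = 0.0685). Factors from snRNA and nuclear rRNA genes gave 0.67 for Rpph1 (adjusted p = 0.0629) and 0.94 for Rmrp (adjusted p = 0.0151). The same scalings moved the median of all 1144 features by -0.34, -0.84 and 0.55, and factors from miRNA genes moved it by -0.18. Measured from the median of the features tested, Rpph1 stood at 0.13 to 0.15 and Rmrp at 0.40 to 0.45 under the main scaling and the 5 other scalings. The share of calls that were higher in knockout hearts was 46.2% with TMM, 28.2% with total counts, 34.8% with miRNA factors, 13.3% with snoRNA factors and 64.6% with snRNA and rRNA factors.

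Single libraries decided whether Rmrp was called. Without control replicate 1 its log2 fold change was 0.64 (adjusted p = 0.00681 by edgeR), without knockout replicate 2 it was 0.68 (adjusted p = 0.0245), and without knockout replicate 3 it was 0.67 (adjusted p = 0.0208). Without control replicate 2 it was 0.29 (adjusted p = 0.197). In these fits 64.4%, 54.8%, 52.4% and 45.0% of the features tested were called. Rmrp was also called without a filter on low counts (0.76, adjusted p = 0.00585), where 12.3% of features were. Of all features tested, 52.6% were called with total counts, 51.4% with DESeq2 size factors, 47.7% with miRNA factors, 66.4% with snoRNA factors, 55.3% with snRNA and rRNA factors, 46.9% with a term for the replicate number, 33.9% by DESeq2, 41.6% without control replicate 3 and 53.9% without knockout replicate 1. Leaving out any 1 knockout library also shifted the median log2 fold change by 0.21 to 0.24. Relative to the median feature, Rmrp then stood at 0.32 to 0.49, and at 0.33 to 0.57 when a control library was left out. Without control replicate 2, where both RNAs were lowest, Rpph1 stood at -0.02.

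**Figure D2:**
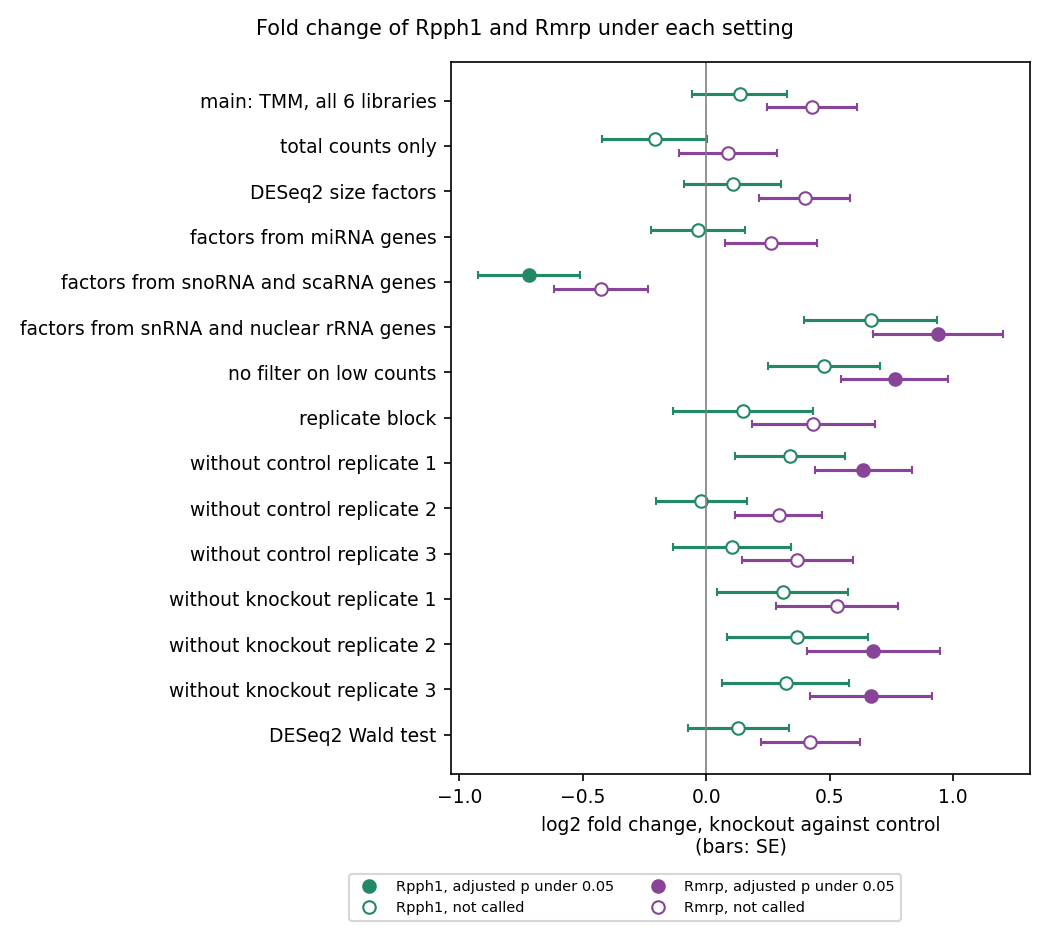
Log2 fold change of Rpph1 (green) and Rmrp (purple), knockout against control, with its SE under the main fit and 14 alternatives. Filled points have an adjusted p under 0.05. Values run from -0.72 to 0.67 for Rpph1 and from -0.43 to 0.94 for Rmrp, and Rpph1 lies below Rmrp in every row.

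The balance between the RNAs within a library does not depend on scaling, since both counts come from the same reads. Rpph1 made up 11.4%, 11.1% and 11.9% of the summed Rpph1 and Rmrp counts of the control hearts, in replicate order, and 8.84%, 9.78% and 10.3% of those of the knockout hearts. Every knockout heart had a lower share of Rpph1 than every control heart. The nearest pair were control replicate 2 and knockout replicate 3, whose 95% Wilson intervals overlapped (lower bounds 10.4% and 9.58%). Control hearts averaged 11.5% ± 0.398 and knockout hearts 9.63% ± 0.726 (SD, n = 3 each). The mean log2 ratio of Rpph1 to Rmrp differed by -0.28, knockout minus control (exact two-sided permutation p = 0.1, the smallest that 3 against 3 allow), so no call at 0.05 was possible. With each library left out in turn the difference ran from -0.34 to -0.22.

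Per nucleotide of gene length, Rmrp had 9.09 ± 0.355 counts for each count of Rpph1 in control hearts and 11.1 ± 0.949 in knockout hearts (SD, n = 3 each). The library ratios were 9.11, 9.43 and 8.72 for the control hearts and 12.1, 10.9 and 10.3 for the knockout hearts, in replicate order. For comparison, 53.2% of 1062 features with counts in every library also had a ratio to Rmrp that did not overlap between the genotypes, and 51.5% had such a ratio to Rpph1.

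**Figure D3:**
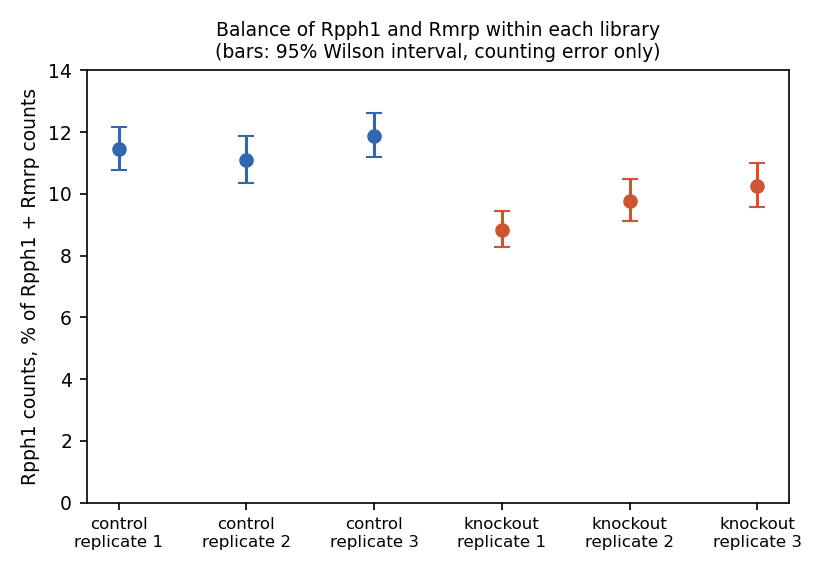
Rpph1 counts in percent of Rpph1 plus Rmrp counts in each library, with 95% Wilson intervals that cover counting error only. The 3 control libraries (blue) lie between 11.1% and 11.9%, and the 3 knockout libraries (red) between 8.84% and 10.3%.

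Other named transcripts of RNA polymerase III mostly fell in knockout hearts. Of 8 such features outside tRNA and 5S rRNA genes, 7 were tested. Of these, 6 fell, 0 rose and 1 was not called, and their median was -1.51 (log2 fold change) beside -0.01 over all tested features. Of all 1144 features, 27.0% were called lower. The 7SK RNA Rn7sk, which holds the elongation factor P-TEFb inactive, had 15222, 28502 and 36089 counts in the control hearts, in replicate order, and 959, 746 and 471 in the knockout hearts. Its log2 fold change was -4.80 (SE 0.33, adjusted p = 8.28e-07 by edgeR). The Y RNAs, which bind the Ro60 protein, fell as well, with Rny3 at -3.60 (log2 fold change, SE 0.32, adjusted p = 4.33e-06) and Rny1 at -2.14 (SE 0.19, adjusted p = 4.11e-06). The vault RNA Vaultrc5 fell by 1.51 (SE 0.31, adjusted p = 0.00155). The 7SL copies Rn7s1 and Rn7s2, RNA of the signal recognition particle, fell by 1.18 (adjusted p = 0.000646) and 1.07 (adjusted p = 0.00219), and reads may be split between these copies of a multicopy family, so their values are uncertain. Rn7s6, named in the same series as Rn7s1 and Rn7s2, was not called (log2 fold change 0.13, SE 0.22, adjusted p = 0.634 by edgeR). RNAs of this name series thus differed, and the uncertainty from split reads may apply to Rn7s6 too. Elsewhere Rn7s6 was called in both directions. With snoRNA factors Rn7s6 was lower (-0.72, adjusted p = 0.0138). All 7 tested RNAs of the list fell under that scaling, as did 659 of all 1144 features. With snRNA and rRNA factors Rn7s6 was higher (0.75, adjusted p = 0.0286). Calls of Rn7sk, Rny1, Rny3, Vaultrc5 and Rn7s1 were made in all 14 alternatives, and that of Rn7s2 in 13.

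Set against these RNAs inside each library, Rpph1 and Rmrp stood higher in knockout hearts. Neither was called itself, so the ratios to RNAs that fell largely restate those falls. The log2 ratio of Rmrp to Rn7sk went from -1.91 ± 0.708 to 3.32 ± 0.377 (SD, n = 3 each), a 37.6-fold shift, and that of Rpph1 to Rn7sk from -4.86 ± 0.701 to 0.09 ± 0.475, a 30.8-fold shift. Ratios to Rny3 shifted 16.2-fold for Rmrp and 13.3-fold for Rpph1, and ratios to Rny1 shifted 5.87-fold and 4.82-fold. Against Vaultrc5 the shifts were 3.58-fold and 2.94-fold, and against Rn7s2 2.76-fold and 2.26-fold. Against Rn7s1 the log2 ratios shifted by 1.59 for Rmrp and 1.30 for Rpph1. In all these ratios the genotypes did not overlap (exact two-sided permutation p = 0.1 each, adjusted p = 0.187 over 28 ratios). The same held for 53.2% of 1062 features set against Rmrp and 51.5% set against Rpph1. Against Rn7s6 both overlapped (Rmrp 0.28 on the log2 scale, exact p = 0.5, Rpph1 -0.00, exact p = 1.0).

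The RNAs that fell were both longer and shorter than Rpph1 and Rmrp. Rn7sk is 331 nt and Rn7s1 and Rn7s2 are 300 nt each, close to the 319 nt of Rpph1 and the 271 nt of Rmrp. Rny1 (112 nt), Rny3 (102 nt) and Vaultrc5 (143 nt) are shorter than either. Rn7s6, which was not called, is 291 nt. Whether length has a part in these differences was not tested.

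**Figure D4:**
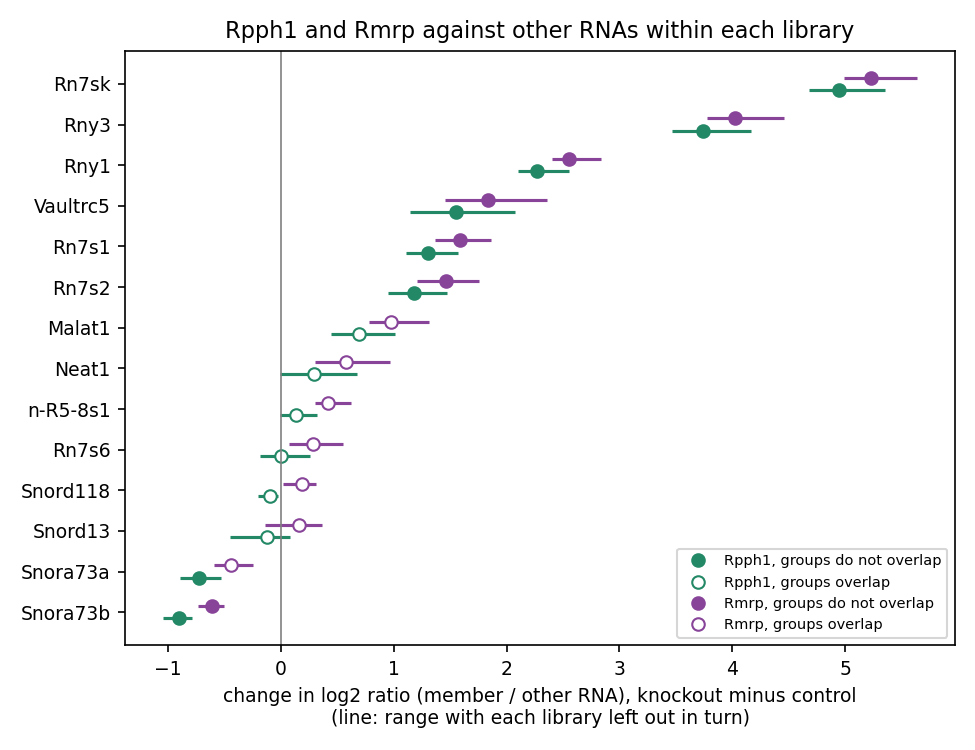
Change of the within-library log2 ratio of Rpph1 (green) and Rmrp (purple) to 14 other RNAs, knockout minus control group means, with the range when each library is left out as a line. Filled points mark ratios whose genotypes do not overlap. The shift is widest against Rn7sk (4.95 for Rpph1 and 5.23 for Rmrp) and lies below 0 for both against Snora73a and Snora73b. For Rpph1 alone it also lies below 0 against Snord13 (-0.13), Snord118 (-0.098) and Rn7s6 (-0.0035).

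The short rRNA of the large ribosomal subunit that lies next to the spacer cut by RNase MRP, n-R5-8s1, gave 164 ± 24.9 scaled CPM in control and 168 ± 39.8 in knockout hearts (SD, n = 3 each). Its log2 fold change was 0.03 (SE 0.21, adjusted p = 0.902 by edgeR). The sign of n-R5-8s1 changed with total counts and miRNA factors, and with snoRNA factors it was called lower (-0.81, adjusted p = 0.00889). The log2 ratio of Rmrp to n-R5-8s1 was 1.26 ± 0.0431 in control and 1.67 ± 0.355 in knockout hearts (exact two-sided permutation p = 0.3, n = 3 per group). Among 4 other nucleolar RNAs of pre-rRNA cleavage, 2 rose and 0 fell, while 2 did not pass the test. Of all 1144 tested features, 50.2% were called, 23.2% as higher. The median of these 4 RNAs, 0.58, turned to -0.26 with snoRNA factors, where 0 rose and 2 fell, beside 659 of 1144 features called lower. All 4 rose with snRNA and rRNA factors, beside 409 of 1144 called higher. These 4 are snoRNAs and helped set the snoRNA factors, so their values under them are no independent check. The U8 RNA Snord118 and the U13 RNA Snord13 were not called (0.25 each, adjusted p = 0.270 and 0.315), and both turned negative with total counts and with snoRNA factors, where they were the 2 that fell. The U17 RNAs Snora73a (0.91, adjusted p = 0.0123) and Snora73b (1.06, adjusted p = 0.00150) rose, from 3.37 to 6.35 and from 4.85 to 10.1 scaled CPM. The call of Snora73a was lost with total counts (0.59, adjusted p = 0.108), miRNA factors (0.74, adjusted p = 0.0644) and snoRNA factors (0.06, adjusted p = 0.832), and that of Snora73b with snoRNA factors (0.21, adjusted p = 0.405). Within libraries the log2 ratios of Rpph1 to both of them differed by -0.73 and -0.90, knockout minus control, without overlap of the genotypes. That of Rmrp to Snora73b also did not overlap (-0.62, exact p = 0.1 each, adjusted p = 0.187 over 28 ratios), while that of Rmrp to Snora73a did (-0.45, exact p = 0.2). Of 1062 features, 51.5% had a ratio to Rpph1 without overlap and 53.2% a ratio to Rmrp.

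Substrates of RNase P were counted in the same libraries. Beside 23.2% of all features called higher and 27.0% called lower, 43 of 114 precursor nuclear tRNAs tested rose and 14 fell, and their log2 fold changes had a median of 0.21. With snoRNA factors 34 rose and 48 fell, beside 101 and 659 of all 1144 features. The median was negative with total counts (-0.13) and snoRNA factors (-0.64), ran from 0.42 to 0.79 with a library left out, and was 1.17 by DESeq2 and 1.42 without a filter on low counts. Of 124 mature nuclear tRNAs, 15 rose and 48 fell (median -0.45, positive without a filter on low counts and with snRNA and rRNA factors). Under the latter 30 rose and 26 fell, beside 409 and 224 of all 1144 features. All 22 mitochondrial tRNAs, which the protein-only enzyme trims, fell (median -3.43). The members with the highest mean CPM in these lists were precursor_tRNA-Asp-GTC-1-11 (log2 fold change 6.28, from 1.41 to 111 scaled CPM), mature_tRNA-Gly-CCC-5 (-2.92) and mt-Ts2 (-3.80). That mean covers both genotypes, so the ranking favours features that are high in either group. The precursor ranked first only through its knockout level, so its fold change does not stand for its list. Of 180 5S rRNA copies, 63 were tested, 2 rose and 13 fell, with a median of -0.53. The counts that rose and fell were 1 and 41 with total counts, 0 and 61 with snoRNA factors, and 10 and 2 with snRNA and rRNA factors, where the median turned to 0.02. Over all 1144 features they were 170 and 432, 101 and 659, and 409 and 224 under these scalings. The 5S copies are among the rRNA genes that set these last factors, so that median is no independent check of their fall. The number of 5S copies that fell was 38 without control replicate 1, 6 without control replicate 2, and 2 without control replicate 3 or any 1 knockout replicate. Of all features tested, 559 of 1410, 281 of 1171 and 261 of 1168 fell without control replicates 1, 2 and 3. Without knockout replicates 1, 2 and 3, 435 of 1403, 435 of 1389 and 430 of 1405 fell. Values of single copies are uncertain because their reads may be split.

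Malat1 and Neat1, nuclear RNAs whose 3′ ends RNase P frees by cutting before a tRNA-like part that RNase Z then trims, were not called. Malat1 had 32.5 ± 2.46 scaled CPM in control and 23.5 ± 9.60 in knockout hearts (SD, n = 3 each), and its log2 fold change was -0.47 (adjusted p = 0.174 by edgeR). Neat1 had 5.41 ± 1.57 and 4.79 ± 0.700 (log2 fold change -0.18, SE 0.27, adjusted p = 0.593). Both values became positive with snRNA and rRNA factors. Malat1 was called lower with total counts (-0.83, adjusted p = 0.0204) and snoRNA factors (-1.30, adjusted p = 0.00187), and Neat1 with snoRNA factors (-1.02, adjusted p = 0.00582). The protein subunits of RNase P, RNase MRP and the mitochondrial enzyme were not analysed here.

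**Figure D5:**
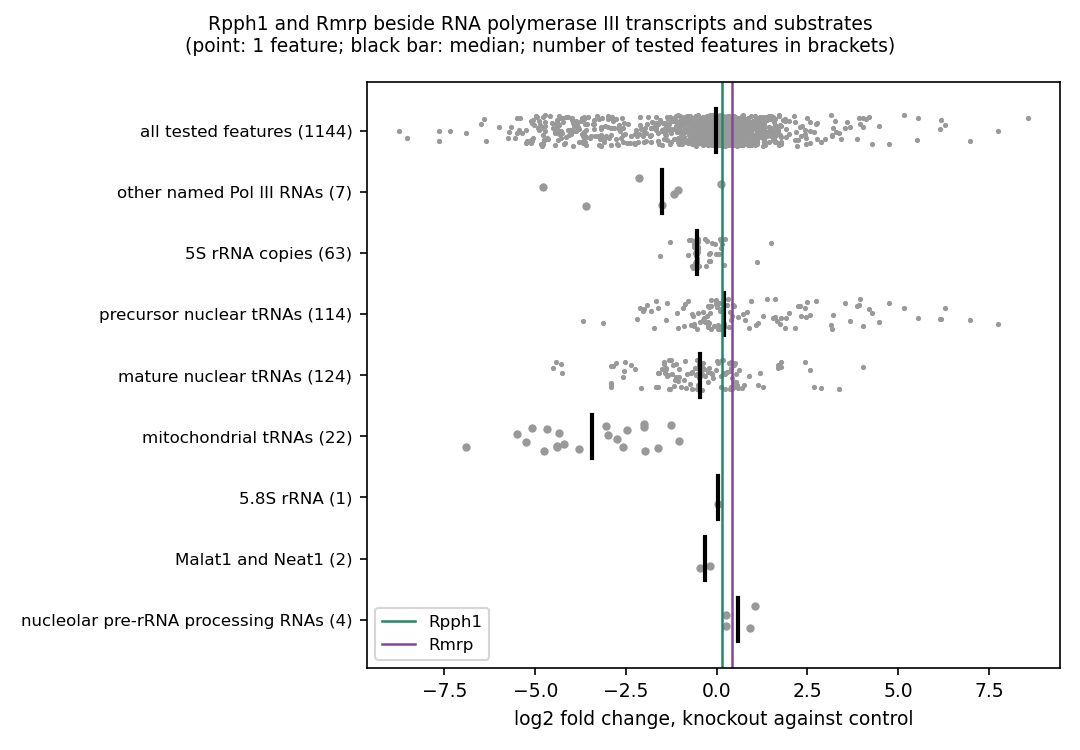
Log2 fold change of each tested feature, knockout against control, for all 1144 features and by list, with list medians as black bars and the values of Rpph1 (0.14) and Rmrp (0.43) as vertical lines. Points of the other named RNA polymerase III RNAs lie to the left of both lines, with Rn7s6 at 0.13 nearest to them.

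In the spread of all tested features, Rpph1 and Rmrp lay near the middle. By log2 fold change, 55.6% of features stood below Rpph1 and 68.2% below Rmrp. An absolute log2 fold change no larger than that of Rpph1 was found for 106 of 1144 features (9.27%), and no larger than that of Rmrp for 371 (32.4%). By mean scaled CPM, Rmrp ranked 146 and Rpph1 315 among them.

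Profiles over the 6 libraries were compared by the root mean square difference of log2 CPM, each centred on its own mean, over 479 other features with a mean of at least 10 CPM. Rpph1 and Rmrp differed from each other by 0.162, with a Pearson r of 0.833 over 6 libraries that share scaling factors, and 19 of those features lay closer to Rmrp. Closest to Rpph1 were Mir320 (0.0444), Snord59a (0.0827), Mir423 (0.107), Mirlet7a-1 (0.108) and Mir125b-2 (0.108). Closest to Rmrp were the lincRNA Gm26917 (0.0624), Mir300 (0.0931), Mir409, the H/ACA snoRNA Snora3 (0.113) and Mir379 (0.116). None of the 5 nearest to Rpph1 was called between genotypes by edgeR (lowest adjusted p = 0.108, Snord59a), beside 50.2% of all 1144 tested features. Of the 5 nearest to Rmrp, Gm26917 (log2 fold change 0.43, adjusted p = 0.0413), Snora3 (0.51, adjusted p = 0.0464) and Mir379 (0.58, adjusted p = 0.0250) were. These neighbours were picked by likeness over the same 6 libraries, so they share the genotype difference of Rpph1 or Rmrp by construction. Their calls add no support.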

How the data were processed

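For each mouse the authors deposited a table of raw counts and one of normalized counts, a signal that matches the raw count over a single size factor for that library. Their comparison table holds log2 fold changes, a test score, p-values and adjusted p-values, per the file headers. The submitters' processing notes name build mm10 and the tools DESeq2 1.16.1, featureCounts 1.5.1, Bowtie2 2.2.9 and cutadapt 1.14. The sources used here do not give the annotation, the strand setting, how reads with several alignments were treated or how the 4 technical replicates per mouse were joined. There were 0 columns of other samples.

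The whole table was tested with edgeR 4.0.16 in R 4.3.3 (glmQLFit, glmQLFTest, TMM factors, no covariate) after filterByExpr (minimum count 10, minimum total 15), which kept 1144 of 30638 features, while 21384 had 0 counts in every library. A feature was called where its adjusted p (Benjamini-Hochberg) was under 0.05. Intervals of fold changes are 95%. Single values per library were compared by exact permutation tests (SciPy 1.17.1). DESeq2 1.42.0 served as an alternative. P-values measure the spread between these mice. Positions and sequences came from GENCODE M21 (GRCm38), and shared 25-mers were searched in 141767 transcripts. No 2 libraries were alike within sampling noise (lowest chi-square per degree of freedom 79.1).

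Genes beside Rpph1 and Rmrp were named by rule: the 5 profiles nearest to each, up to 2 members of each list with the highest mean CPM, ribozyme-type features with a count, overlapping genes, and Malat1 and Neat1. Further members of the lists of other RNA polymerase III and nucleolar RNAs, Gm25043, Gm6093, Rprl1 and Parp2 were named after values were seen. The pair and the lists were chosen with earlier results of these data known.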

Additional observations from a re-analysis of the deposited data

How the results depend on the processing

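Neither RNA was called in the reported fit. Counting error per library was at most 3.79% for Rpph1 and 1.29% for Rmrp. Log2 fold changes turned negative for Rpph1 with total counts (-0.21), miRNA factors (-0.035) and snoRNA factors (-0.72) and for Rmrp with snoRNA factors (-0.43). Leaving out each library gave -0.020 to 0.37 for Rpph1 and 0.29 to 0.68 for Rmrp. Rmrp passed the threshold with snRNA and rRNA factors (0.94) and without a filter on low counts (0.76). The cause of these changes was not tested, except that the scalings shift all features together. The count of 574 called features became 1141 without a filter and 886 by DESeq2, and 486 to 908 with a library left out. No shared origin of same-numbered mice is given. Their deviations had correlations of -0.13, -0.02 and -0.19, so no pairing by number was seen. With 3 mice per group these values cannot exclude a shared origin. The replicate block gave 0.15 for Rpph1 (adjusted p = 0.684), 0.43 for Rmrp (adjusted p = 0.146) and 536 called features.

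The difference in the summed share of counts turned to -0.0102 percentage points without miRNA genes in the denominator and -0.00233 without tRNA features, from 0.00204 over all counts, and was 0.0560 without snoRNA and scaRNA genes (exact p = 0.1). It ran from -0.00304 to 0.00677 with a library left out. For Rmrp alone it was -0.00761, -0.00104 and 0.0523 (exact p = 0.1) with these denominators, from 0.00282, and -0.00200 to 0.00702 with a library left out. For Rpph1 alone, from -0.000775 over all counts, it was -0.00263 without miRNA genes (exact p = 0.1) and -0.00129 without tRNA features. The sign for Rpph1 turned without snoRNA and scaRNA genes (0.00367, exact p = 0.1). The log2 ratio of Rpph1 to Rmrp kept its sign in all 7 alternatives run, which could not have turned it. The genotypes did not overlap, so leaving out 1 library cannot change the sign, and adding 0.5 to both counts hardly alters them.

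Signs of other RNAs also turned. With total counts, miRNA factors and snoRNA factors, Rn7s6 stood at -0.21, -0.068 and -0.72 and n-R5-8s1 at -0.32, -0.13 and -0.81, the latter also at -0.11 and -0.0019 without control replicate 2 or 3 (-0.11 to 0.34 over all libraries left out). Snord118 stood at -0.10 and -0.60 and Snord13 at -0.088 and -0.59 with total counts and snoRNA factors. With snRNA and rRNA factors Malat1 stood at 0.048 and Neat1 at 0.39, and Neat1 at 0.20 without a filter and 0.04 and 0.15 without knockout replicate 2 or 3. List medians turned to 0.018 (5S rRNA) and 0.095 (mature tRNAs) with snRNA and rRNA factors, to 0.30 (mature tRNAs) without a filter, to -0.13 and -0.64 (precursor tRNAs) with total counts and snoRNA factors, and to -0.26 (nucleolar RNAs) with snoRNA factors. The 5S rRNA copies helped set the rRNA factors and the nucleolar RNAs the snoRNA factors, so these 2 turns are no independent check. Ratios turned sign in an alternative added after the data were seen, leaving out each library. Their ranges were -0.18 to 0.26 for Rpph1 to Rn7s6, -0.0072 to 0.32 for Rpph1 to n-R5-8s1, -0.45 to 0.078 for Rpph1 to Snord13, -0.0082 to 0.68 for Rpph1 to Neat1 and -0.14 to 0.36 for Rmrp to Snord13. No genotype groups in these ratios were apart in the reported values.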
